A study of Homo sapiens with 6 samples.

Results

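The genes described here encode the proteins of the mitochondrial ribosome. They are the 78 intervals, of 20333 in the deposited count table, whose gene name is MRPL or MRPS followed by a number. By name, 49 belong to the large subunit (MRPL) and 29 to the small subunit (MRPS). The assay was PRO-seq (precision run-on sequencing), which labels the RNA that engaged polymerases are making, so a gene's reads report ongoing transcription rather than stored mRNA. All cells came from T47D, an established estrogen receptor-positive breast cancer line, in growth factor-complete medium. All were exposed for 5 h to the solvent DMSO, to 500 nM GDC0068, a catalytic inhibitor of the AKT kinases, or to 100 nM INY-05-040, a compound that causes degradation of AKT and is called Degrader here. The doses differ because the study chose them to suppress signalling downstream of AKT to a like extent, so the comparison of the drugs is one of these treatments and not of the compounds at a matched dose. Each arm had 2 libraries from 2 independent experiments in this 1 line.

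The mitochondrial ribosome translates the proteins encoded by mitochondrial DNA, all of them parts of the oxidative phosphorylation system. Its RNAs are transcribed from mitochondrial DNA, whereas its proteins are encoded by nuclear genes, made in the cytosol and imported. Some of them have counterparts in bacterial ribosomes and are called conserved here, and the others, called mitochondria-specific, were added during the evolution of the organelle. The nuclear factors NRF1, GABP (which binds ETS-type sites) and YY1 are known to act at many promoters of mitochondrial protein genes.

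The promoters of 6 members are shown because the results turn on these genes. MRPL3, MRPL12 and MRPL41 were lower under Degrader, MRPL45 was the one member that was higher, and MRPL32 and MRPL17 had the most negative differences between Degrader and GDC0068. Each sequence is the RefSeq promoter of build GRCh38.p14, from 150 bases before to 30 after the RefSeq start, written 5′ to 3′ on the strand of the gene. Capitals mark matches, on either strand, to the 7-letter strings GCATGCG (an NRF1 half-site), CCGGAAG (ETS) and AAGATGG (YY1). MRPL3 lies at chr3:131502942-131503121 on the minus strand, MRPL12 at chr17:81703217-81703396 on the plus strand and MRPL41 at chr9:137551729-137551908 on the plus strand. MRPL32 is at chr7:42932226-42932405 on the plus strand, MRPL17 at chr11:6683311-6683490 on the minus strand and MRPL45 at chr17:38297018-38297197 on the plus strand.
MRPL3: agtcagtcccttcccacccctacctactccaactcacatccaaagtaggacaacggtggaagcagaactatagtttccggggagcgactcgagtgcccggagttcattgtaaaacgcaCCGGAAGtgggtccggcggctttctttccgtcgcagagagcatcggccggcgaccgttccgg
MRPL12: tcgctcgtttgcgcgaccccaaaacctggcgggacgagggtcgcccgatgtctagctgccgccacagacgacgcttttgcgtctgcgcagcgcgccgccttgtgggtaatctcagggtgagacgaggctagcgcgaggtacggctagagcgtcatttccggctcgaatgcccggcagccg
MRPL41: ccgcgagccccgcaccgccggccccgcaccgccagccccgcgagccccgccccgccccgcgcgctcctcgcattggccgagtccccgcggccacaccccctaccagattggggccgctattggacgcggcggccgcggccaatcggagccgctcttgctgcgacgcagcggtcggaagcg
MRPL32: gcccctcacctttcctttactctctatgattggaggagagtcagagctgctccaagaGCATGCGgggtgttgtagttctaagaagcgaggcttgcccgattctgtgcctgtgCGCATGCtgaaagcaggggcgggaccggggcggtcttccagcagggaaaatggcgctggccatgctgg
MRPL17: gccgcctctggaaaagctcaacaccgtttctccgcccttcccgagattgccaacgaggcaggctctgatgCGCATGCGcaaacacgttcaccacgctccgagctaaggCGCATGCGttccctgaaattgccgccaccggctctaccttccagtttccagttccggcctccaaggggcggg
MRPL45: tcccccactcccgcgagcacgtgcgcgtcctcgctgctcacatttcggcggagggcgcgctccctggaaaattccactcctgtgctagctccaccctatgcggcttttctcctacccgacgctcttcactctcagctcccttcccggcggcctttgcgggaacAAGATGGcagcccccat
In these windows MRPL3 holds 1 ETS string, 32 bases before the start. MRPL32 holds 2 NRF1 half-sites. MRPL17 holds the NRF1 string on both strands at 2 places, where the strings of opposite strands overlap by all but 1 base. MRPL45 holds the YY1 string 14 bases into the transcript. MRPL12 and MRPL41 hold none of the 3 strings. A match is a description of letters and not evidence that a factor binds there, and the lack of one says only that these letters are not in the window.

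RefSeq promoters of 300 bases, 250 before and 50 after the start, were matched for 69 of the 78 members. The ETS string was in 30 of the 69 (43.5%), against 19.5% of the 11152 genes of the table with a matched promoter and 10.3% of all 35116 RefSeq promoters. The YY1 string was in 24 members (34.8%), against 7.79% and 5.84%. Of these 24, 17 (70.8%) held it within the first 50 bases after the start, as did 54.3% of the 869 matched genes with the string. The NRF1 half-site was in 7 members (10.1%), against 6.63% and 3.91%. At least 1 of the 3 strings stood in 47 members (68.1%), in 69.0% of the MRPL and 66.7% of the MRPS promoters, against 30.0% of the matched genes of the table. The deposited starts of 63 members lay within 50 bases of the RefSeq start.

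Depth was similar across libraries. Total counts ranged from 25371819 to 32192576, and a member had between 116 and 5073 counts in a library. All 78 members passed the filter on low counts, which kept 19902 of the 20333 intervals. Of 9 luminal markers, which include ESR1, GATA3 and KRT8, all were in the table and summed to between 5334 and 5745 CPM (counts scaled to the effective library size) in each library, with TFF1 near the bottom at 5.79 and 5.84 CPM in DMSO. Of the other marker lists, 1 of 4 basal genes (ACTA2), 1 of 4 immune genes (CD68) and none of 4 stromal genes was in the table. No spike-in is stated and none was used to scale the libraries here, so a change common to most genes would not be seen. The p-values rest on the spread between 2 libraries per arm, pooled across genes and arms.

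Under DMSO the members spanned a wide range of density. Over the 78 members the level per kilobase of interval ran from 0.477 to 89.2 CPM per kb, with a median of 3.55. The 3 highest were the short mitochondria-specific large-subunit genes MRPL53 (89.2 ± 8.7 CPM per kb), MRPL41 (51.2 ± 0.63) and MRPL43 (21.6 ± 1.6; SD, n = 2). The 3 lowest lie in long intervals: MRPL1 (0.477 ± 0.0025 CPM per kb), MRPS9 (0.566 ± 0.0087) and MRPS31 (0.637 ± 0.010). Neighbours in each of these orders of 3 differed by more than their SDs. Polymerases paused near a start weigh more in a short interval, and whether the counted stretch left out the start is not given in the sources used here.

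Under Degrader, few mitochondrial ribosomal protein genes were called as changed in the main fit, and those that were called were mostly lower. Of the 78 members, edgeR called 7 against DMSO at an adjusted p under 0.05: MRPL3, MRPL41, MRPS25, MRPL14, MRPS17 and MRPL12 fell, and MRPL45 rose. This is 8.97% of the members, below the 15.3% of all genes tested that were called (7.39% higher and 7.88% lower). By subunit, 4 MRPL genes fell and 1 rose of 49, and 2 MRPS genes fell and 0 rose of 29. Unadjusted p-values were under 0.05 for 25 members, whereas 29.9% of all genes tested had one. The replicate number was taken to pair the libraries of an experiment, which the labels do not state. With it as a block, 20 members were called (16 lower, 4 higher). This was 25.6% of the members, against 30.7% of all genes tested (15.7% lower and 15.1% higher). The 20 were 14 of the MRPL genes (28.6%) and 6 of the MRPS genes (20.7%).

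MRPL3 (ENSG00000114686, chromosome 3, 131462212 to 131502962, minus strand) encodes a conserved large-subunit protein. It stood at 61.3 and 60.8 CPM in the DMSO libraries, 53.6 and 51.2 CPM under GDC0068, and 51.8 and 48.5 CPM under Degrader. Both libraries of each drug lay below both DMSO libraries, and the libraries of the 2 drugs overlapped. Its log2 fold change under Degrader was -0.28 (SE 0.058, edgeR adjusted p = 0.00760). Under GDC0068 it was -0.22 (SE 0.058, edgeR adjusted p = 0.0583), past the threshold only with the replicate block (edgeR adjusted p = 0.00188). The interval overlaps the small nucleolar RNA gene SNORA58 on its own strand.

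MRPL12 (ENSG00000262814, chromosome 17, 81703370 to 81707517, plus strand) encodes the stalk protein of the large subunit, which recruits translation factors and has also been described to bind the mitochondrial RNA polymerase. Its levels were 56.4 and 50.9 CPM in DMSO, 48.9 and 37.2 CPM under GDC0068, and 43.2 and 41.4 CPM under Degrader. All 4 drug libraries lay below both DMSO libraries, with the GDC0068 libraries further apart than those of any other arm. Under Degrader the log2 fold change was -0.34 with an SE of 0.10 (edgeR adjusted p = 0.0442). Under GDC0068 it was -0.32 with an SE of 0.10 (edgeR adjusted p = 0.110). For GDC0068 the replicate block gave an edgeR adjusted p of 4.2e-04. Without GDC0068 replicate 1 that change was -0.53 (edgeR adjusted p = 0.0246), so a single library moved it across the threshold.

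MRPL41 (ENSG00000182154, chromosome 9, 137551895 to 137552555, plus strand) encodes a mitochondria-specific large-subunit protein and has the shortest interval of the members, 661 bp. The DMSO libraries gave 34.1 and 33.5 CPM, the GDC0068 libraries 35.5 and 34.2 CPM, and the Degrader libraries 27.1 and 27.1 CPM. Only the Degrader libraries stood apart from DMSO on the low side, while both GDC0068 libraries were slightly above DMSO. With Degrader its log2 fold change was -0.32, with an SE of 0.069 (edgeR adjusted p = 0.0100). With GDC0068 it was 0.04 (edgeR adjusted p = 0.770). Between the drugs it was -0.36 (95% interval -0.51 to -0.21), with an edgeR adjusted p of 0.0623, and 6.4e-04 with the replicate block.

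MRPS25 and MRPS17 were the small-subunit genes that fell. MRPS25 (ENSG00000131368, chromosome 3, 15048512 to 15065256, minus strand), which encodes a mitochondria-specific protein, had 76.6 and 74.8 CPM in DMSO, 73.0 and 62.7 CPM under GDC0068, and 64.7 and 62.7 CPM under Degrader. Its change under Degrader was -0.25 on the log2 scale (SE 0.068, edgeR adjusted p = 0.0301). Both arms lay below DMSO, with 1 GDC0068 library close to it. MRPS17 (ENSG00000239789, chromosome 7, 55951916 to 55956500, plus strand), which encodes a conserved protein, had 31.0 and 29.8 CPM in DMSO, 29.9 and 28.9 under GDC0068, and 25.4 and 25.7 in the Degrader arm. The GDC0068 libraries overlapped DMSO, and the Degrader libraries did not. Its log2 fold change under Degrader was -0.25 (SE 0.074, edgeR adjusted p = 0.0410). The MRPS17 interval overlaps AC092647.5 on its own strand.

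The conserved large-subunit gene MRPL14 (ENSG00000180992, chromosome 6, 44113451 to 44127412, minus strand) had 42.4 and 41.2 CPM in DMSO, 39.9 and 40.3 under GDC0068, and 36.2 and 36.2 under Degrader. Each Degrader library was below every other library. Its log2 fold change was -0.21 (SE 0.060, edgeR adjusted p = 0.0388). MRPL45 (ENSG00000278845, chromosome 17, 38297154 to 38323211, plus strand) encodes a mitochondria-specific protein of the large subunit that helps to hold the ribosome at the inner membrane. It was at 71.2 and 76.9 CPM in DMSO, 73.2 and 79.4 under GDC0068, and 82.9 and 86.6 under Degrader. Both Degrader libraries were above the other 4, and in each arm replicate 2 was the higher. The log2 fold change under Degrader was 0.20 (SE 0.060, edgeR adjusted p = 0.0473).

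**Figure D1:**
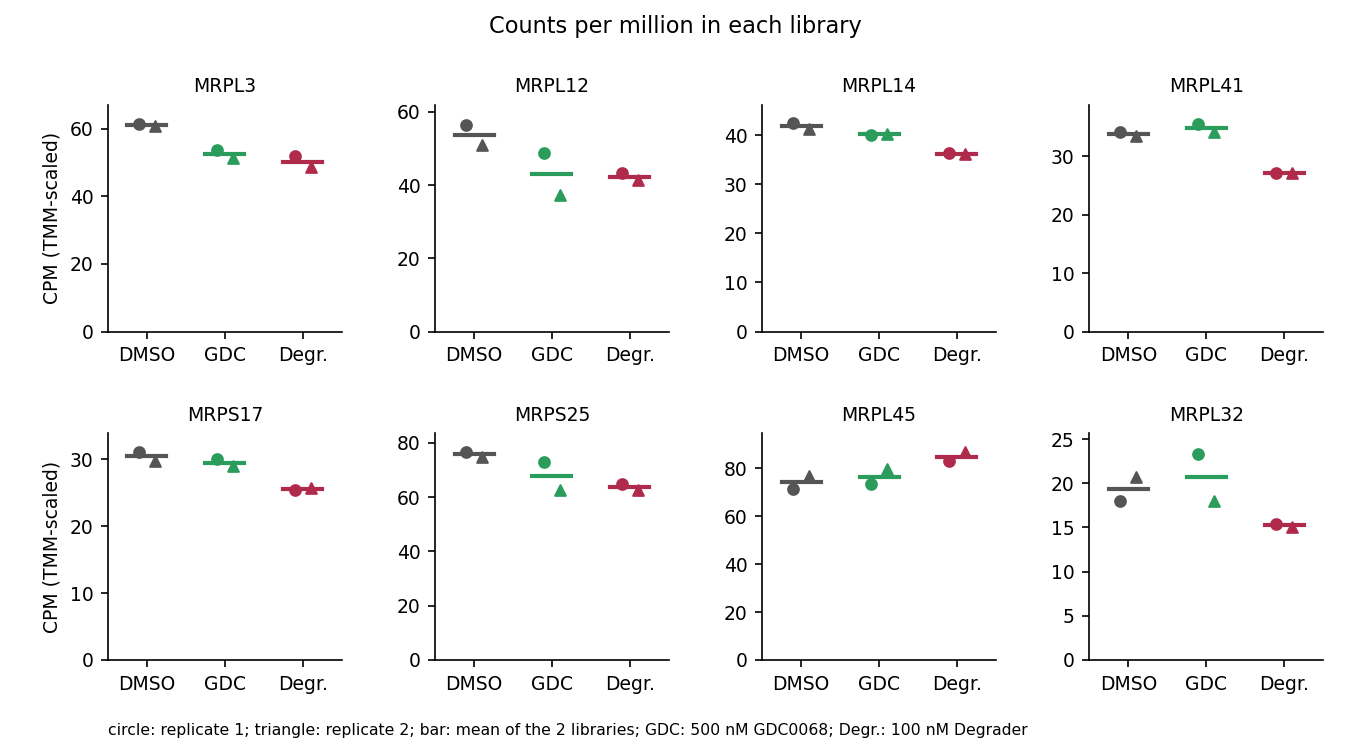
CPM (vertical axes, starting at 0) of the 7 members called under Degrader and of MRPL32, in each library. Circles are replicate 1, triangles replicate 2 and bars the mean of 2 libraries; in all panels but that of MRPL45 the Degrader libraries are the lowest arm by mean, as for MRPL41 with 27.1 and 27.1 CPM.

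These calls depended on single libraries. Without DMSO replicate 1 or without Degrader replicate 2, edgeR called 0 members. Without DMSO replicate 2 it called 2 (MRPL3 and MRPL41), and without Degrader replicate 1 it called 1 (MRPL3). The share of all genes called fell with the library left out too, to 4.68%, 4.67%, 9.16% and 8.89% in the same order. The values moved less than the calls. Over the 6 fits that leave out 1 library, the change of MRPL3 lay between -0.33 and -0.25, that of MRPL41 between -0.33 and -0.31 and that of MRPL12 between -0.41 and -0.27. The range was -0.27 to -0.23 for MRPS25, -0.23 to -0.19 for MRPL14, -0.28 to -0.22 for MRPS17 and 0.14 to 0.25 for MRPL45. DESeq2 called 4 members under Degrader (MRPL3, MRPL12, MRPL41 and MRPS25), and robust estimation in edgeR dropped MRPL12 alone.

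Members without a call included larger values. MRPL32, a conserved large-subunit gene, had the most negative change under Degrader, -0.34, with an SE of 0.13 and an edgeR adjusted p of 0.0878. Its libraries gave 17.96 and 20.7 CPM in DMSO, 23.3 and 18.01 under GDC0068, and 15.4 and 15.1 in the Degrader arm. The spread within DMSO and within GDC0068 was wide for this gene, and the Degrader libraries lay below both arms. MRPL32 passed the threshold in the blocked fit (edgeR adjusted p = 0.0126), and also when the GDC0068 libraries were not in the fit. At the other end, the mitochondria-specific MRPL50 had a change of 0.25 (edgeR adjusted p = 0.144), from 9.18 and 9.56 CPM in DMSO to 10.8 and 11.4 under Degrader. MRPL36, which encodes a small conserved protein, had a change of 0.21 (edgeR adjusted p = 0.147), from 16.5 and 15.5 to 19.4 and 17.7 CPM. In both, the Degrader libraries lay above DMSO, though by less than the test required.

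Several members chosen for a role of their own or a misleading name were not called in any comparison. MRPL58, a peptidyl-tRNA hydrolase that rescues stalled ribosomes, had a log2 change of -0.05 under Degrader and 0.05 under GDC0068. MRPS18A, MRPS18B and MRPS18C encode related proteins that take different places in the ribosome, and their changes under Degrader were -0.02, -0.16 and -0.13. MRPS18B had 41.7 and 44.7 CPM in DMSO, 39.6 and 39.2 under GDC0068, and 39.6 and 37.6 under Degrader. Its 4 drug libraries lay below DMSO, and with the replicate block its Degrader change was called (edgeR adjusted p = 0.0381). MRPS30, which sits in the large subunit despite its name, had 20.8 and 21.4 CPM in DMSO, 24.4 and 21.0 under GDC0068, and 18.5 and 17.6 under Degrader. It was low in both Degrader libraries, and the edgeR adjusted p against DMSO was 0.148. MRPS36, which is a component of the 2-oxoglutarate dehydrogenase complex and not a core ribosomal protein, had a change of 0.08 under Degrader and 0.17 under GDC0068 (edgeR adjusted p of 0.649 and 0.380).

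Over whole subunits the Degrader differences were small. The median log2 fold change was -0.03 over the MRPL genes and -0.09 over the MRPS genes, beside 0.00 over all genes tested. Of the 78 members 52 (66.7%) had a value below 0, as did 50.3% of all genes. Both Degrader libraries lay below both DMSO libraries for 32 members and above them for 15, where 29.2% and 29.3% of all genes tested did so. Between libraries of the same replicate number, the MRPL median was -0.05 in replicate 1 and -0.02 in replicate 2, and the MRPS median -0.08 and -0.12. Without DMSO replicate 2 the MRPL median was -0.0596. By structure, the conserved proteins of the small subunit had a median of -0.09 (n = 16, 1 lower) and the mitochondria-specific ones -0.03 (n = 10, 1 lower). In the large subunit these medians were -0.06 (n = 30, 3 lower) and -0.02 (n = 21, 1 lower and 1 higher). With the block 3 of the 16 (18.8%), 3 of the 10 (30%), 9 of the 30 (30%) and 5 of the 21 (23.8%) were called. Over all genes tested 15.3% were called without the block and 30.7% with it. Differences between these lists were not tested.

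**Figure D2:**
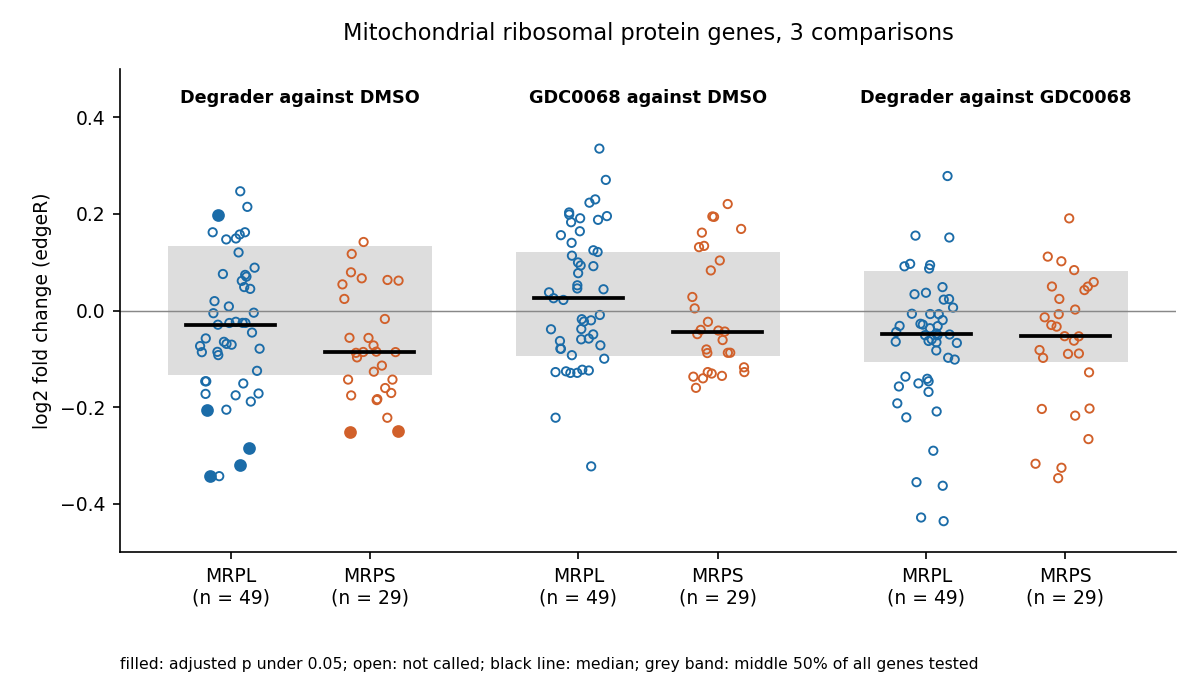
Log2 fold change of each member (points) in the 3 comparisons, for 49 MRPL and 29 MRPS genes; filled points were called by edgeR, black lines are medians and grey bands hold the middle 50% of all genes tested. The medians lie within 0.1 of 0 in every comparison, and the 7 filled points are all in the comparison of Degrader with DMSO.

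GDC0068 changed no member past the threshold. The edgeR count was 0 of 78 against DMSO, with 10 members at an unadjusted p under 0.05, while 3.58% of all genes tested were called (1.7% higher, 1.88% lower) and 20% had an unadjusted p under 0.05. DESeq2 also called 0. With the replicate block 8 members were called (10.3%, against 17.8% of all genes, 8.91% lower and 8.87% higher): MRPL12, MRPL3, MRPS25, MRPS6 and MRPS27 were lower, and MRPL13, MRPL22 and MRPL51 higher. MRPS27 encodes a mitochondria-specific small-subunit protein and had 158 and 163 CPM in DMSO and 149 and 145 under GDC0068. Its 2 GDC0068 libraries were below DMSO by a log2 change of -0.13 (edgeR adjusted p = 0.157, and 0.0114 with the block).

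The most positive values under GDC0068 belonged to MRPL52, MRPL51 and MRPL33, all large-subunit genes in intervals under 8 kb. MRPL52 had 7.44 and 6.36 CPM in DMSO and 8.57 and 8.87 under GDC0068, a log2 change of 0.34 (SE 0.13, edgeR adjusted p = 0.165). MRPL51 had 15.1 and 15.5 CPM in DMSO and 18.5 and 18.3 under GDC0068, a log2 change of 0.27 (SE 0.10, edgeR adjusted p = 0.161). MRPL33 had 12.01 and 12.2 CPM in DMSO and 14.6 and 13.9 under GDC0068, a log2 change of 0.23 (edgeR adjusted p = 0.203). In each of the 3 both GDC0068 libraries lay above DMSO, and none passed the test. The subunit medians were 0.03 for MRPL and -0.04 for MRPS genes, beside 0.01 over all genes. Without GDC0068 replicate 1 the MRPL median turned to -0.0185 and the MRPS median went to -0.0756. For 23 members both GDC0068 libraries lay above both DMSO libraries and for 25 below, where 26.1% and 24% of all genes did so.

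The summed level of each subunit was also set out by library. The MRPL genes together had 1740 and 1731 CPM in DMSO, 1755 and 1714 under GDC0068, and 1685 and 1685 in the Degrader arm. The MRPS genes had 1235 and 1239 CPM in DMSO, 1228 and 1166 under GDC0068, and 1173 and 1173 in the Degrader arm. The ratio of the MRPL to the MRPS sum was 1.41 and 1.40 in DMSO, 1.43 and 1.47 under GDC0068, and 1.44 and 1.44 under Degrader. All 4 drug libraries had a higher ratio than both DMSO libraries. A sum gives most weight to the members with the highest CPM. With 2 libraries against 2, no rank or permutation test of these sums could pass 0.05, and none was made.

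Degrader and GDC0068 were then set against each other. No member was called by edgeR (0 of 78), 16 had an unadjusted p under 0.05, and DESeq2 and robust estimation in edgeR each called 1, MRPL41. Without GDC0068 replicate 2, edgeR called MRPS26 alone. Few genes were called at all in this comparison, 0.266% of those tested (0.151% lower and 0.116% higher under Degrader), with 14.1% at an unadjusted p under 0.05. With the replicate block 8 members were called, again 10.3%, against 10.4% of all genes (5.35% lower, 5.03% higher): MRPL32, MRPL17, MRPL41, MRPL40, MRPS30, MRPS26 and MRPS16 were lower under Degrader, and MRPL45 was higher. Both Degrader libraries lay below both GDC0068 libraries for 23 members and above them for 12, against 22.9% and 22.1% of all genes tested. The medians were -0.05 for the MRPL and -0.05 for the MRPS genes, and 55 of the 78 members had a value below 0. Without GDC0068 replicate 1 these medians were -0.0170 and -0.000725, and without GDC0068 replicate 2 they were -0.0756 and -0.0859. Without Degrader replicate 2 the MRPS median was -0.0309. For 62 members the 95% interval of the difference between the drugs included 0, and its median half-width, with no adjustment for the number of genes, was 0.17 on the log2 scale. The calls use adjusted values and need larger differences, as the uncalled values of MRPL17 and MRPL40 show.

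MRPL17, a conserved large-subunit gene, had 12.7 and 12.4 CPM in DMSO, 13.6 and 15.5 under GDC0068, and 10.9 and 10.8 in the Degrader arm. The drugs lay on opposite sides of DMSO, with a difference of -0.43 between them (95% interval -0.66 to -0.20, edgeR adjusted p = 0.111, and 0.00539 with the block). MRPL32 showed the same order with a difference of -0.44 (95% interval -0.71 to -0.16, edgeR adjusted p = 0.160), although its second GDC0068 library was within the DMSO range. MRPL40, a mitochondria-specific gene, had 22.6 and 21.5 CPM in DMSO, 27.1 and 23.0 under GDC0068, and 18.9 and 20.2 under Degrader. Its difference between the drugs was -0.36 (edgeR adjusted p = 0.148). The most positive differences were those of MRPL18, a conserved protein gene, at 0.28 (edgeR adjusted p = 0.298), and of the mitochondria-specific MRPS31 at 0.19 (edgeR adjusted p = 0.337). MRPL18 had 13.04 and 13.01 CPM in DMSO, 10.6 and 13.1 under GDC0068, and 14.3 and 14.6 under Degrader. Here the first GDC0068 library stood low and the second at the DMSO level.

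The difference between the drugs varied with the length of the interval. Members under 5 kb (n = 26) had a median difference, Degrader against GDC0068, of -0.16, those of 5 to 20 kb (n = 35) of -0.05 and those of 20 kb and over (n = 17) of 0.01. Over all genes tested in the same classes the medians were -0.07, -0.02 and 0.02. Under GDC0068 against DMSO the member medians were 0.12, -0.04 and -0.08, and under Degrader -0.06, -0.09 and -0.01. Across the 78 members Spearman's rho between length and change was 0.55 for Degrader against GDC0068, -0.46 for GDC0068 against DMSO and 0.12 for Degrader against DMSO. Over all 19902 genes these were 0.21, -0.08 and 0.10. Genes share the libraries and are not independent replicates, so no test is attached to these correlations. The same comparisons among 79 cytosolic ribosomal protein genes gave 0.64, -0.59 and 0.06.

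**Figure D3:**
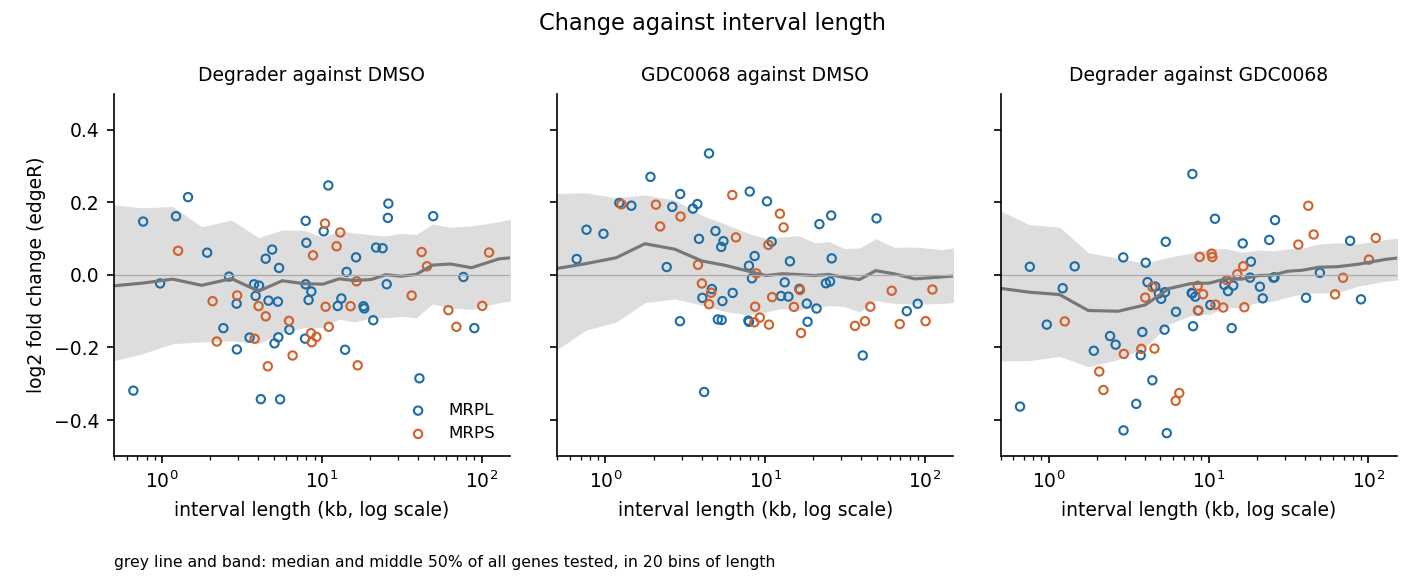
Log2 fold change of each member (points; MRPL and MRPS in 2 colours) against interval length in kb on a log axis, with the median and middle 50% of all genes tested in grey. In the comparison of Degrader with GDC0068 the short members lie lowest (median -0.16 under 5 kb) and the long ones near 0 (0.01 at 20 kb and over).

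The pattern differed between the GDC0068 libraries. Relative to the mean DMSO level, the median over the 26 short members was 0.18 in GDC0068 replicate 1 and 0.02 in GDC0068 replicate 2. In the Degrader libraries it was -0.07 and -0.09, and in the DMSO libraries 0.02 and -0.02. Between libraries of the same replicate number, the median difference of the short members between the drugs was -0.27 in replicate 1 and -0.04 in replicate 2. Spearman's rho over the members kept its sign in both, at 0.55 and 0.32 for Degrader against GDC0068 and at -0.44 and -0.30 for GDC0068 against DMSO. Among the short members called lower with the block between the drugs, MRPS26 had 35.7 and 34.3 CPM in DMSO, 44.0 and 33.1 under GDC0068, and 31.3 and 30.4 under Degrader. Its first GDC0068 library was the highest of all and its second was below DMSO.

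**Figure D4:**
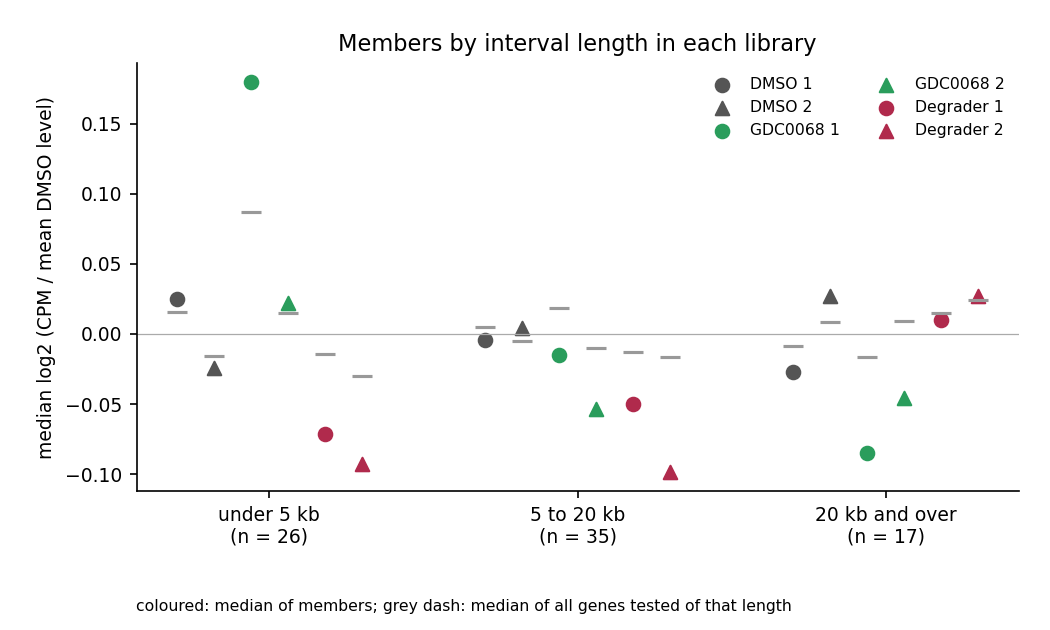
Median over members of the log2 ratio of CPM to the mean DMSO level, in each library and length class (coloured points; circles replicate 1, triangles replicate 2), with grey dashes for all genes tested of that length. GDC0068 replicate 1 is highest among short members at 0.18, and both Degrader libraries are below 0 there.

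Many members start close to a gene on the other strand. Of the 78, 33 have such a start within 1000 bp, at distances from 58 to 990 bp with a median of 188 bp. Under Degrader 5 of the 33 partners rose (KLC4, MTBP, PNPLA7, PPP1R10 and HELQ) and 1 fell (HIRA), so 6 in all, where 7.39% of all genes tested rose and 7.88% fell (15.3% in all). The difference from that background was not tested. With the replicate block TWNK, GGA3, SARS2 and TMEM63B were also called lower (edgeR adjusted p of 0.0109, 0.00213, 0.00130 and 0.0423). ZNF189 and LRRC46 were also called higher with it (edgeR adjusted p of 0.0311 and 0.0317). Of all genes tested the block called 15.1% higher and 15.7% lower. MRPL41 starts 682 bp from PNPLA7, which encodes a lysophospholipase. PNPLA7 had 149.9 and 153 CPM in DMSO, 185 and 196 under GDC0068, and 207 and 217 under Degrader. It rose under both drugs, by 0.48 under Degrader (edgeR adjusted p = 2.76e-04) and 0.33 under GDC0068 (edgeR adjusted p = 0.00955), while MRPL41 fell under Degrader. The start of MRPL40 lies 250 bp from that of HIRA, a histone chaperone gene, which had a change of -0.24 under Degrader (edgeR adjusted p = 0.0122), beside -0.17 for MRPL40 (edgeR adjusted p = 0.267). MRPL46 and MRPS11 are themselves such a pair, 321 bp apart, with Degrader changes of -0.03 and -0.09, neither of them called. Of the 7 members called under Degrader, 4 have a partner: MRPL3, MRPL12, MRPL14 and MRPL41.

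Members called lower under Degrader were counted by promoter string. Among the 47 members with at least 1 of the 3 strings 1 was called lower, and among the 22 without any 5 were. Over all matched genes tested, 283 of 3343 with a string and 805 of 7774 without were called lower. For YY1 alone the members called lower were 0 of 24 with the string and 6 of 45 without. These differences were not tested, and all these counts come from the fit without the replicate block. With the block MRPL4, MRPL20, MRPL32, MRPL38, MRPL49, MRPS16 and MRPS18B, which hold the YY1 string, were called lower too. The 0 of 24 therefore does not hold there, and the contrast by string rests on the fit without the block. Other members with and without a string also gained a call, and blocked counts by string were not made. Of the 6 members called lower without the block, all have a matched promoter and 1, MRPL3, holds one of the 3 strings in its 300 bases. The median change under Degrader was -0.07 over the 47 members with a string and -0.09 over the 22 without. For the 7 members with an NRF1 half-site, MRPL17 and MRPL32 among them, the median was 0.16 for GDC0068 and -0.16 for Degrader against DMSO, and -0.29 for Degrader against GDC0068. For the 62 without it these medians were -0.03, -0.07 and -0.05. That group of 7 genes is too small for more than this description, and no test was made.

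Genes that act with the mitochondrial ribosome were examined by list. Of the 5 mitoribosomal proteins not named MRP (DAP3, PTCD3, AURKAIP1, CHCHD1 and GADD45GIP1), 0 were called under Degrader, where 15.3% of all genes tested were. Their median was -0.14, and all 5 values were below 0. DAP3, a small-subunit protein gene, had 114 and 113 CPM in DMSO, 102 and 104 under GDC0068, and 103 and 103 under Degrader. Its 4 drug libraries lay below DMSO, and its Degrader change of -0.14 had an edgeR adjusted p of 0.0588. With the replicate block DAP3 was called lower under Degrader (edgeR adjusted p = 0.00352) and under GDC0068 (edgeR adjusted p = 0.00801). The block also called GADD45GIP1 under Degrader (edgeR adjusted p = 0.0465), which makes 2 of 5 (40%, against 30.7% of all genes tested). Of 18 mitochondrial translation factors in the table, 2 fell under Degrader and none rose (11.1%, against 15.3% of all genes tested). They were the elongation factor gene GFM1 (-0.32, edgeR adjusted p = 0.00514) and the mitochondrial mRNA-binding factor gene LRPPRC (-0.25, edgeR adjusted p = 0.00672). Both also fell under GDC0068, by -0.25 (edgeR adjusted p = 0.0413) and -0.23 (edgeR adjusted p = 0.0299), and these were the only GDC0068 calls in that list (11.1%, against 3.58% of all genes). With the block 1 gene of the list rose and 3 fell under GDC0068 (22.2%, against 17.8%). Under Degrader the block called 3 genes of the list lower and none higher (16.7%, against 30.7%). The 2 contrasts share their DMSO libraries. Without either DMSO library or either GDC0068 library, the GDC0068 calls of both genes were lost, with values from -0.30 to -0.20. The Degrader call of GFM1 was lost without Degrader replicate 2 (range -0.38 to -0.27) and that of LRPPRC without DMSO replicate 1 (range -0.28 to -0.23).

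Of 29 mitoribosome assembly genes, 3 rose and 4 fell under Degrader, or 24.1% against 15.3% of all genes tested. The rRNA methyltransferase gene METTL15 rose by 0.27 (edgeR adjusted p = 0.00582) and the pseudouridine synthase gene TRUB2 by 0.22 (edgeR adjusted p = 0.0118). The rRNA methyltransferase gene MRM1 fell by 0.33 on the log2 scale (edgeR adjusted p = 0.0132), from 46.8 and 45.2 CPM in DMSO to 38.9 and 34.1 under Degrader. YBEY also rose, and C1QBP, MTERF3 and MRM2 also fell. With the block 3 rose and 11 fell (48.3%, against 30.7%). Without DMSO replicate 1 or Degrader replicate 2 the calls of METTL15 (range 0.24 to 0.30) and MRM1 (-0.43 to -0.25) were lost, and that of TRUB2 (0.20 to 0.24) without any of the 4 libraries compared. No assembly gene was called under GDC0068, where 3.58% of all genes tested were. Of the 29, 7 had an unadjusted edgeR p under 0.05, as did 20% of all genes tested. The block called 6 of them under GDC0068 (20.7%, against 17.8%). Of 11 genes for upkeep and transcription of mitochondrial DNA, 2 fell under Degrader (18.2%, against 15.3% of all genes tested), the DNA polymerase gene POLG (-0.17, edgeR adjusted p = 0.0445) and the topoisomerase gene TOP1MT (-0.25, edgeR adjusted p = 0.0464). Both calls were lost without any of the 4 libraries compared, with ranges of -0.21 to -0.13 and -0.28 to -0.22. With the block 1 gene of this list rose and 4 fell (45.5%, against 30.7%).

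Among 10 nuclear regulators of mitochondrial genes, 4 fell under Degrader and none rose (40% called, against 15.3% of all genes tested, 7.88% lower). The list did not fall as a whole: its median was 0.06, only 4 of the 10 values were below 0, and the highest was 0.40. PPARGC1B, a coactivator of mitochondrial biogenesis, had 78.4 and 73.6 CPM in DMSO, 65.7 and 59.5 under GDC0068, and 47.1 and 44.9 in the Degrader arm. The 3 arms did not overlap. It fell under Degrader by 0.72 on the log2 scale (SE 0.064, edgeR adjusted p = 1.06e-04), fell under GDC0068 by 0.28 (edgeR adjusted p = 0.0359), and the difference between the drugs was -0.44 (edgeR adjusted p = 0.0220). The Degrader call held in all 6 fits that leave out 1 library (-0.77 to -0.68). The GDC0068 call was lost without DMSO replicate 1, DMSO replicate 2 or GDC0068 replicate 2 (range -0.35 to -0.22). The difference between the drugs lost its call without GDC0068 replicate 1, Degrader replicate 1 or Degrader replicate 2, with values from -0.51 to -0.37. The related coactivator gene PPRC1 changed by -0.41 under Degrader (edgeR adjusted p = 0.00587) and the nuclear receptor gene ESRRA by -0.33 (edgeR adjusted p = 0.00636). NRF1 itself also fell, by 0.22 on the log2 scale (edgeR adjusted p = 0.0118). The calls of PPRC1 (range -0.55 to -0.29) and ESRRA (-0.41 to -0.24) were lost without DMSO replicate 1 or Degrader replicate 2. YY1 had a change of 0.12 (edgeR adjusted p = 0.165) and was called only with the block, under which 4 genes of the list rose and 4 fell (80%, against 30.7% of all genes).

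The cytosolic ribosomal protein genes gave the nearest comparison, which is given as counts and medians. Of 79 such genes, 62 fell under Degrader and 0 rose (78.5%, against 15.3% of all genes tested). Their median log2 fold change was -0.32, beside -0.07 over the 78 members. Their sum went from 5791 and 5825 CPM in DMSO to 4702 and 4602 under Degrader, and was 5534 and 5188 under GDC0068. Under GDC0068 13 of them fell (16.5%, against 3.58% of all genes tested), with a median of -0.09. With the block 25 fell and 3 rose (35.4%, against 17.8%). Between the drugs 8 were lower under Degrader (10.1%, against 0.266% called over all genes), with a median of -0.24. The block called 55 of them lower (69.6%, against 10.4% called over all genes). The difference between the 2 kinds of ribosomal protein gene was not tested as such.

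**Figure D5:**
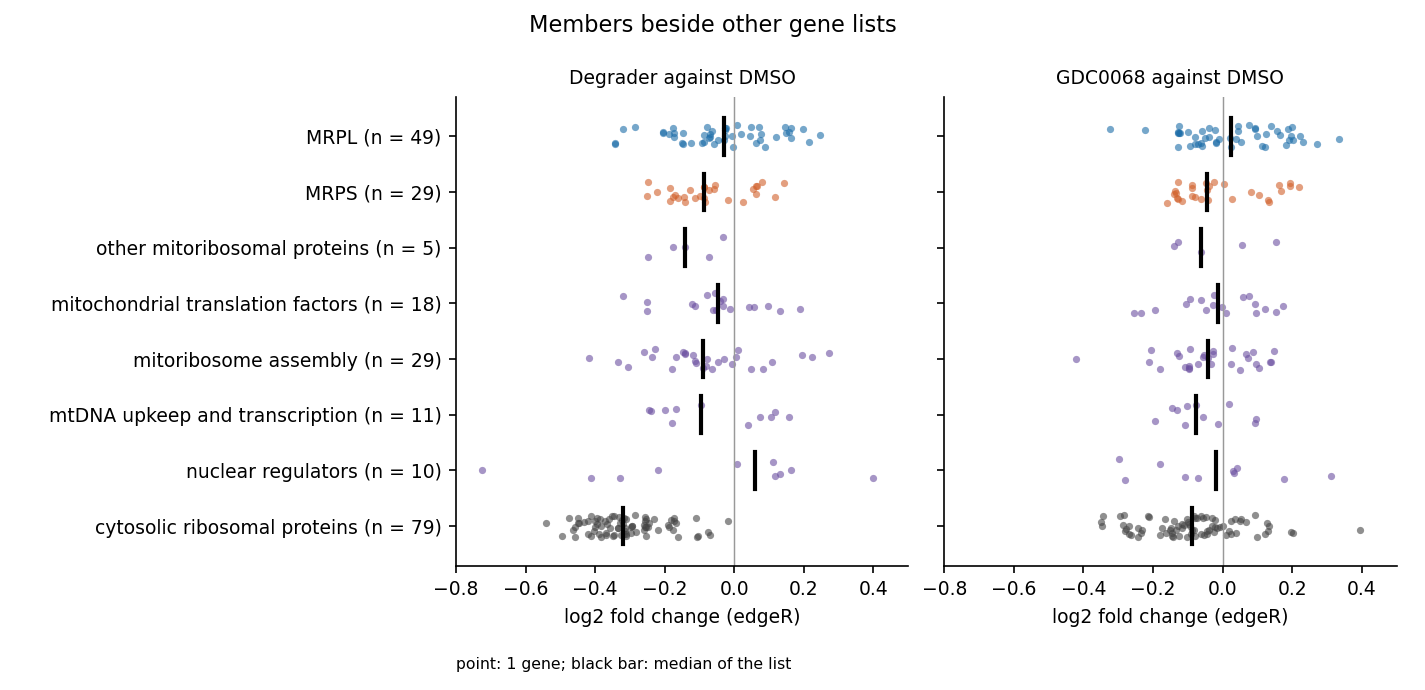
Log2 fold change of single genes (points) and list medians (black bars) under Degrader and under GDC0068, each against DMSO, for the members by subunit, for lists of genes that act with them and for cytosolic ribosomal protein genes. The cytosolic list has a median of -0.32 under Degrader, and the MRPL and MRPS lists have -0.03 and -0.09.

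Overlapping annotation limits some values. Of the members, 6 overlap another interval on their own strand (MRPL2, MRPL3, MRPL9, MRPL20, MRPL38 and MRPS17), and 12 overlap one on the other strand. Without the 6, edgeR calls 5 of the 7 members under Degrader. A pseudogene named for the member exists in RefSeq for 42 of the 78, and reads of near-identical copies could be shared between them, since how multiply mapping reads were treated is not given in the sources used here.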

How the data were processed

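The deposited table gives PRO-seq counts per gene for 6 libraries. The submitters' processing notes name cutadapt 1.14, Bowtie 1.2.2, SAMtools 1.3.1, HISAT2 2.2.1 and limma with the builds dm3, hg38 and GRCh38, without roles. Whether the authors' counts used strand, removed duplicates or left out the start of genes is not given in the sources used here. Coordinates are those of the table.

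In R 4.3.3, filterByExpr (minimum count 10, minimum total 15) removed 431 genes. The 3 arms were fitted together by edgeR 4.0.16 (TMM, quasi-likelihood test, 3 residual degrees of freedom, common coefficient of variation 5.51%), with Benjamini-Hochberg adjustment over 19902 genes and a threshold of 0.05. DESeq2 1.42.0, limma 3.58.1 (voom) and other settings were alternatives. The scripts were tested on simulated data.

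Series text describes 2 independent experiments, and libraries of the same number deviated together (r of 0.354, 0.399 and 0.354 over 16790 genes with a mean count of at least 100). The number was therefore taken to pair libraries in an alternative fit with a replicate block. The labels do not tie the numbers to the experiments, and the fit without the block stayed the main one. Calls given without mention of the block are from that main fit. Blocked values or counts are given beside most of the results where they change a call.

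Members and lists were chosen with earlier results of these data known. Genes were named by rule: every called member, the 3 highest and 3 lowest members by change in each comparison and by DMSO level per kb, 7 members for their role or name, and up to 3 called genes of each pathway list. MRPL40, MRPL46, MRPS11, MRPS26, MRPS27, DAP3, GADD45GIP1, YY1, NRF1, YBEY, C1QBP, MTERF3, MRM2, genes named only as called under an alternative, and genes starting next to members were named after their values were seen.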

Additional observations from a re-analysis of the deposited data

How the results depend on the processing

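Counts of called members depended on the model and on single libraries, and the share of all genes called moved with the model too. Under Degrader against DMSO that share was 15.3% in the main fit, 11.4% with DESeq2 and 30.7% with the block. For GDC0068 against DMSO it was 3.58%, 3.06% and 17.8%. For Degrader against GDC0068 it was 0.266%, 0.683% and 10.4%, and 0.583% with robust estimation. The counts that follow are of the 78 members. For Degrader against DMSO, where 7 were called, DESeq2 called 4, the replicate block 20, and fits without 1 library 0 to 8. For GDC0068 against DMSO, where 0 were called, the block gave 8 and fits without 1 library 0 to 1. For Degrader against GDC0068, also 0, DESeq2 gave 1, robust estimation 1, the block 8 and fits without 1 library 0 to 1. The MRPL median for Degrader against GDC0068 was -0.0463 with DESeq2 size factors in edgeR, -0.0448 with no filter, -0.0465 with DESeq2, -0.0480 with limma-voom and -0.0471 without members that overlap on their strand, beside -0.0497. Leaving out 1 library gave -0.0756 to -0.0170 for it, -0.0596 to -0.0289 (Degrader against DMSO) and -0.0185 to 0.0317 (GDC0068 against DMSO). The MRPS medians ranged from -0.120 to -0.0838, from -0.0756 to -0.0304 for GDC0068 against DMSO, and from -0.0859 to -0.000725 for Degrader against GDC0068. The causes were not tested. Of single-gene values under alternatives, 1304 kept their side of the threshold, 67 lost a call and 30 gained one. The 1304 include uncalled values that changed direction. For example, MRPS36 under Degrader ranged from -0.083 to 0.218 over the fits without 1 library. With 2 libraries per arm, a member without a call cannot be taken as unchanged. MRPL32, at -0.34 under Degrader, was not called in the main fit, whereas MRPL12, also at -0.34, was.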

Other observations

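Some intervals carry the name of a mitochondrial ribosomal protein gene without being members. MRPL20-AS1, which overlaps MRPL20 on the other strand, had 30.3 and 25.6 CPM in DMSO, 23.1 and 24.6 under GDC0068, and 21.9 and 22.2 under Degrader. Under Degrader it fell by 0.35 on the log2 scale (edgeR adjusted p = 0.0311). The pseudogene intervals MRPL45P2 and MRPS31P5 had changes of 0.07 (edgeR adjusted p = 0.443) and 0.16 (edgeR adjusted p = 0.200) under Degrader. They were named after their values were seen.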
